A study of Danio rerio with 24 samples.

Results

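The cytosolic ribosomal protein genes of the zebrafish embryo were taken as all genes whose name starts with rpl or rps followed by a number, together with the acidic stalk genes (rplp) and rpsa, and without the rps6k kinases. The rule was applied to gene names alone, and it found 79 genes, with 78 different names, among the 16361 genes listed at 1 h and at 4 h and the 18984 listed at 8 h. Grouped by name alone, they were 42 large subunit genes, 33 small subunit genes and 4 stalk genes. The name rpl37 was carried by 2 identifiers, and the second one (ENSDARG00000076360), which a table of gene symbols names COA1, is called the second rpl37 here. The rule also takes rps19bp1, which encodes a partner of Rps19, and rpl7l1, a paralogue of rpl7. Neither encodes a protein of the mature ribosome. By name, rps19bp1 is counted with the small subunit genes, and rpl7l1 and the second rpl37 with the large subunit genes. Whether the second rpl37 encodes a ribosomal protein was not settled here, so its values may not be those of one.

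RNA was sequenced from whole embryos of the reporter strain that the labels call Tg(snail1b:GFP), in which a snai1b promoter fragment drives GFP, and all 6 groups carried it. Embryos were treated from 13 hpf (8 somites) with the multi-kinase inhibitor TP-0903 or the solvent DMSO, and 4 libraries were made for each group. Treatment for 1 h ended at 14 hpf (10 somites), for 4 h at 17 hpf (16 somites) and for 8 h at 19.5 hpf (21 somites), as the labels give these stages. The labelled start and end of the 8 h treatment lie less than 8 h apart, and which of them is off was not settled here. Each sample was a pool of 35 whole embryos, and the TP-0903 dose used for sequencing is not given in the sources used here.

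A eukaryotic ribosome joins a small subunit, which decodes mRNA, to a large subunit, which forms the peptide bond. Each subunit is built on ribosomal RNA from many small proteins, most of them needed in equal numbers. A flexible stalk of acidic proteins on the large subunit recruits the translation factors. In vertebrates their mRNAs start with a terminal oligopyrimidine tract, through which growth signalling to the mTOR kinase sets their translation. In humans, loss of a single copy of any of several of these genes causes Diamond-Blackfan anaemia, and zebrafish mutants in several of them are anaemic.

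All libraries together held between 3879310 and 10582470 counts on genes, of which between 201667 and 797135 fell on the 79 genes. All 79 passed the filter on low counts at each time. In the 1 h libraries the spread within treatments lay mostly on 1 axis, computed from genes outside the set, which held 70.7% of that variance at 1 h, 37.5% at 4 h and 25.8% at 8 h. DMSO replicate 4 and TP-0903 replicate 3 stood at one end of the 1 h axis, with scores of 0.596 and 0.502, followed by TP-0903 replicate 1 at 0.184, while the other 1 h libraries lay between -0.344 and -0.135. Nothing in the labels sets these libraries apart.

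Per length, the ribosomal protein genes were among the most abundant transcripts of the embryo. In DMSO embryos at 8 h their median level was 790.0 FPKM (fragments per kilobase of gene and per size of library, deposited by the authors), against 6.51 FPKM for the median of all genes above 0, and 77 of the 79 lay in the top 10% and 62 in the top 1% of genes. The highest FPKM means were those of rplp0, which anchors the stalk, at 1934 ± 429 FPKM (SD, n = 4), of rplp2l, a stalk protein gene, at 1904 ± 88.6 FPKM, and of rps6, the target of the S6 kinases, at 1774 ± 82.9 FPKM. These 3 levels lay within 1 SD of rplp0 of each other. The rplp0 mean and SD were raised by DMSO replicate 4, at 2576 FPKM. Replicates 1 to 3 held 1708, 1752 and 1699 FPKM, each below the rplp2l mean. Next came rpl26, at 1770 ± 209 FPKM. The lowest were rps8b at 1.11 ± 0.237 FPKM, the second rpl37 at 10.4 ± 2.29 FPKM and rps19bp1 at 55.5 ± 4.08 FPKM. The quartiles of the 79 were 491 and 1193 FPKM. FPKM also follows the length of the gene model, which for some of the 79 was longer at 8 h than at 4 h. For rpl31 the length was 373 bases at 4 h and 2739 at 8 h, and the DMSO mean was 1452 and 196 FPKM. In DMSO embryos at 4 h, 67 of the 79 lay in the top 1% of genes.

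The share of all gene counts that fell on the 79 genes gave the first view of the treatment. At 1 h it was 5.20, 5.09, 4.86 and 7.65% in DMSO replicates 1 to 4 and 7.21, 4.53, 7.14 and 4.82% in TP-0903 replicates 1 to 4. At 4 h the share was 8.35, 8.43, 7.53 and 7.37% with DMSO and 8.09, 9.06, 7.43 and 8.21% with TP-0903. At 8 h it was 6.45, 6.91, 6.42 and 7.24% with DMSO and 5.63, 5.67, 5.81 and 5.38% with TP-0903. The groups overlapped at 1 h and 4 h, and at 8 h every TP-0903 library was below every DMSO library, with means of 6.76 ± 0.393% in DMSO and 5.62 ± 0.181% in TP-0903 libraries (SD, n = 4 each). Both main subunits shared this: at 8 h the large subunit genes held 3.49 to 3.87% with DMSO and 2.88 to 3.13% with TP-0903, and the small subunit genes 2.51 to 2.84% and 2.12 to 2.30%.

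**Figure D1:**
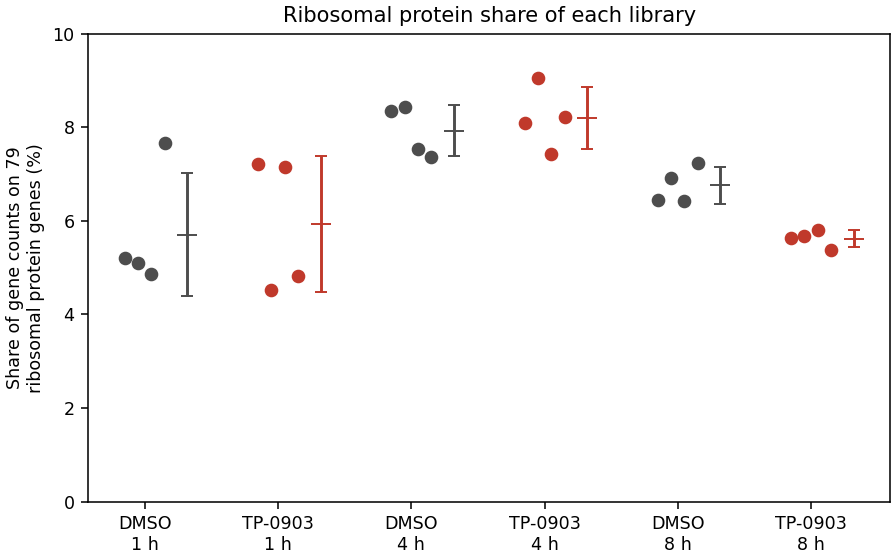
Share of all gene counts on the 79 ribosomal protein genes (%, vertical axis) in each library of the 6 groups (horizontal axis); points are libraries in the order of replicates 1 to 4, and the bar beside them is the mean with its SD. At 1 h 1 DMSO and 2 TP-0903 libraries lie above 7%, and at 8 h the TP-0903 libraries (5.38 to 5.81%) lie under all DMSO libraries (6.42 to 7.24%).

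After 1 h none of the 79 genes differed between TP-0903 and DMSO by edgeR's quasi-likelihood test with Benjamini-Hochberg adjustment over 15530 genes, and none had an unadjusted p under 0.05. Over all genes the test called 0%, with 214 genes at an unadjusted p under 0.05. DESeq2 and limma voom also called none of the 79, and called 14 genes and 1 gene in all. The members' median log2 fold change was 0.09, beside 0.01 over all genes tested, and 70 of the 79 were above 0. The lowest log2 fold changes were those of rps2 (-0.11 with a standard error, SE, of 0.12), rpsa (-0.10, SE 0.15) and rpl6 (-0.06, SE 0.21), and the highest those of the second rpl37 (0.39, SE 0.25), rpl38 (0.30, SE 0.34) and rpl22 (0.26, SE 0.29).

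The ribosomal protein genes moved between the 1 h libraries as a group, in both treatments. In DMSO replicate 4, 77 of the 79 were above their DMSO mean, with a median deviation of 0.63 (log2 CPM, the count scaled to the TMM-normalized library size), and in TP-0903 replicates 1 and 3 the numbers were 75 and 73, with median deviations of 0.49 and 0.53. In DMSO replicates 1 to 3, 73, 76 and 78 of the 79 were below that mean. This largely follows from replicate 4 being part of the mean, so it adds no separate support. In TP-0903 replicates 2 and 4, 75 and 77 were below the same raised mean. The share of all genes above or below their DMSO mean is not given here. The level of rps23, whose protein lies at the decoding centre, was one example. Its CPM was 343, 329, 333 and 858 in DMSO replicates 1 to 4 and 696, 308, 748 and 323 in TP-0903 replicates 1 to 4 at 1 h. The same libraries were high for rpl11, a protein that joins the ribosome with 5S RNA and that in mammals binds Mdm2, at 496, 501, 502 and 992 CPM with DMSO and 883, 471, 1073 and 507 CPM with TP-0903. By contrast rplp2, an acidic stalk gene, stood at 223, 254, 206 and 204 CPM and 215, 233, 219 and 216 CPM, with no such split.

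The median SD of the genes' log2 CPM over the 4 libraries of a group was 0.42 with DMSO and 0.51 with TP-0903 at 1 h, beside 0.30 and 0.31 over all genes tested. At 4 h it was 0.13 and 0.16, and at 8 h 0.13 and 0.07, in each case under the median over all genes, which was between 0.16 and 0.21. The 1 h median log2 fold change therefore followed single libraries: it was 0.35 without DMSO replicate 4 and -0.06 without TP-0903 replicate 3, and with both left out it was 0.20 and no member was called. These libraries and this alternative were chosen after seeing the data. The SEs of single genes at 1 h had a median of 0.29 and ran from 0.11 to 0.44. Whether a change of the size seen at 8 h would be called at this spread was not tested.

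**Figure D2:**
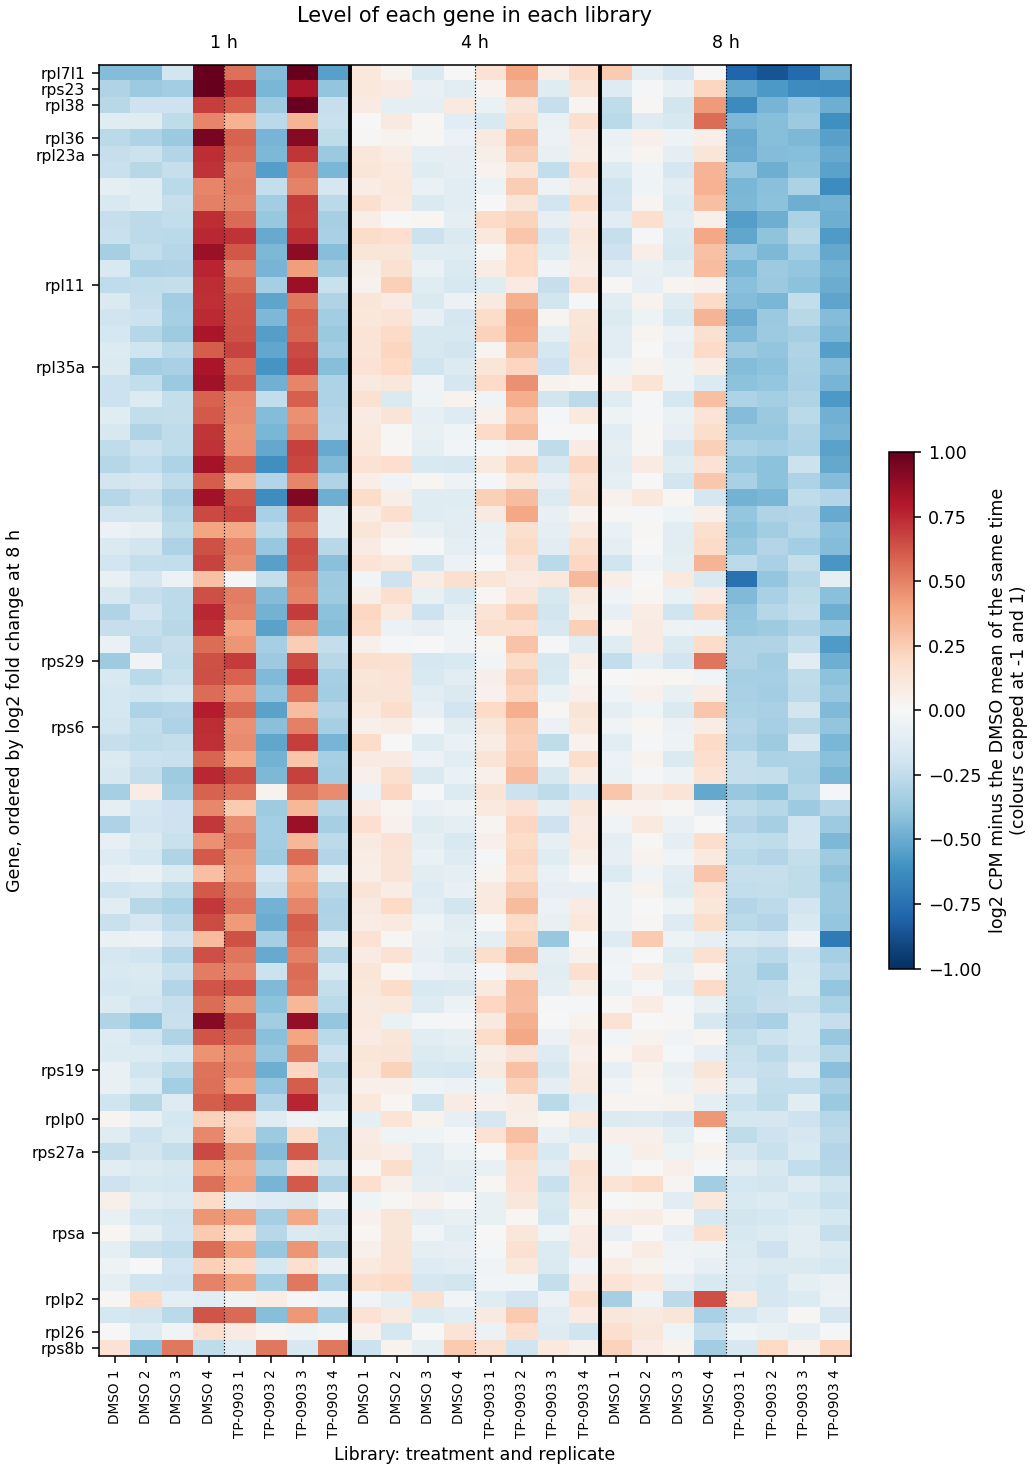
Level of each of the 79 genes (rows, ordered by log2 fold change at 8 h, some of those described named) in each of the 24 libraries (columns), as log2 CPM minus the gene's DMSO mean at the same time, with colours capped at -1 and 1. At 1 h DMSO replicate 4 and TP-0903 replicates 1 and 3 are raised over nearly all rows, and at 8 h the 4 TP-0903 libraries have 77 or 78 of the 79 genes below the DMSO mean.

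After 4 h again none of the 79 genes was called and none had an unadjusted p under 0.05, while 118 of 15953 genes (0.74%) were called in all by edgeR's quasi-likelihood test. DESeq2 and limma voom called none of the 79 either. The median log2 fold change was 0.05, beside 0.00 over all genes, and SEs had a median of 0.10. Values ran from -0.13 (SE 0.14) for the second rpl37 and -0.06 (SE 0.10) for rpl22 to 0.18 (SE 0.11) for rpl15 and 0.20 (SE 0.09) for rpl7l1. The treatment effects at 4 h and at 1 h were compared in a fit of 16 libraries, in which none of the 79 and 0% of all genes differed at an adjusted p under 0.05 by edgeR, with none of the 79 at an unadjusted p under 0.05, beside 343 of all genes. DESeq2 called none of the 79 and 7 genes in all in that fit, and limma voom called none of either.

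After 8 h most ribosomal protein genes were lower in TP-0903-treated embryos, each by a modest amount. Of the 79, 64 fell and none rose at an adjusted p under 0.05 by edgeR's quasi-likelihood test, which is 81.0% of them, while 13.5% of the 17478 genes tested fell. The median log2 fold change of the 79 was -0.33, a level 20.2% lower, beside -0.01 over all genes tested, and the middle part of the genes, from the lower to the upper quartile, lay between -0.39 and -0.26. Of the other 15 genes 14 also had values below 0, and 1, rps8b, was above. In 68 of the 79 every TP-0903 library lay below every DMSO library, beside 13.3% of all genes tested. In whole embryos, fewer cells of a type that makes much of these mRNAs and less of them in each cell cannot be told apart.

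Among the large subunit genes 36 of 42 fell, with a median log2 fold change of -0.34, and among the small subunit genes 26 of 33, with a median of -0.33. Over all genes tested 13.5% fell. Of the 4 stalk genes rplp1 and rplp2l fell, and rplp0 and rplp2 did not pass. These counts include rpl7l1 and rps19bp1 by name, and both fell. No test of a difference between subunits was made.

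**Figure D3:**
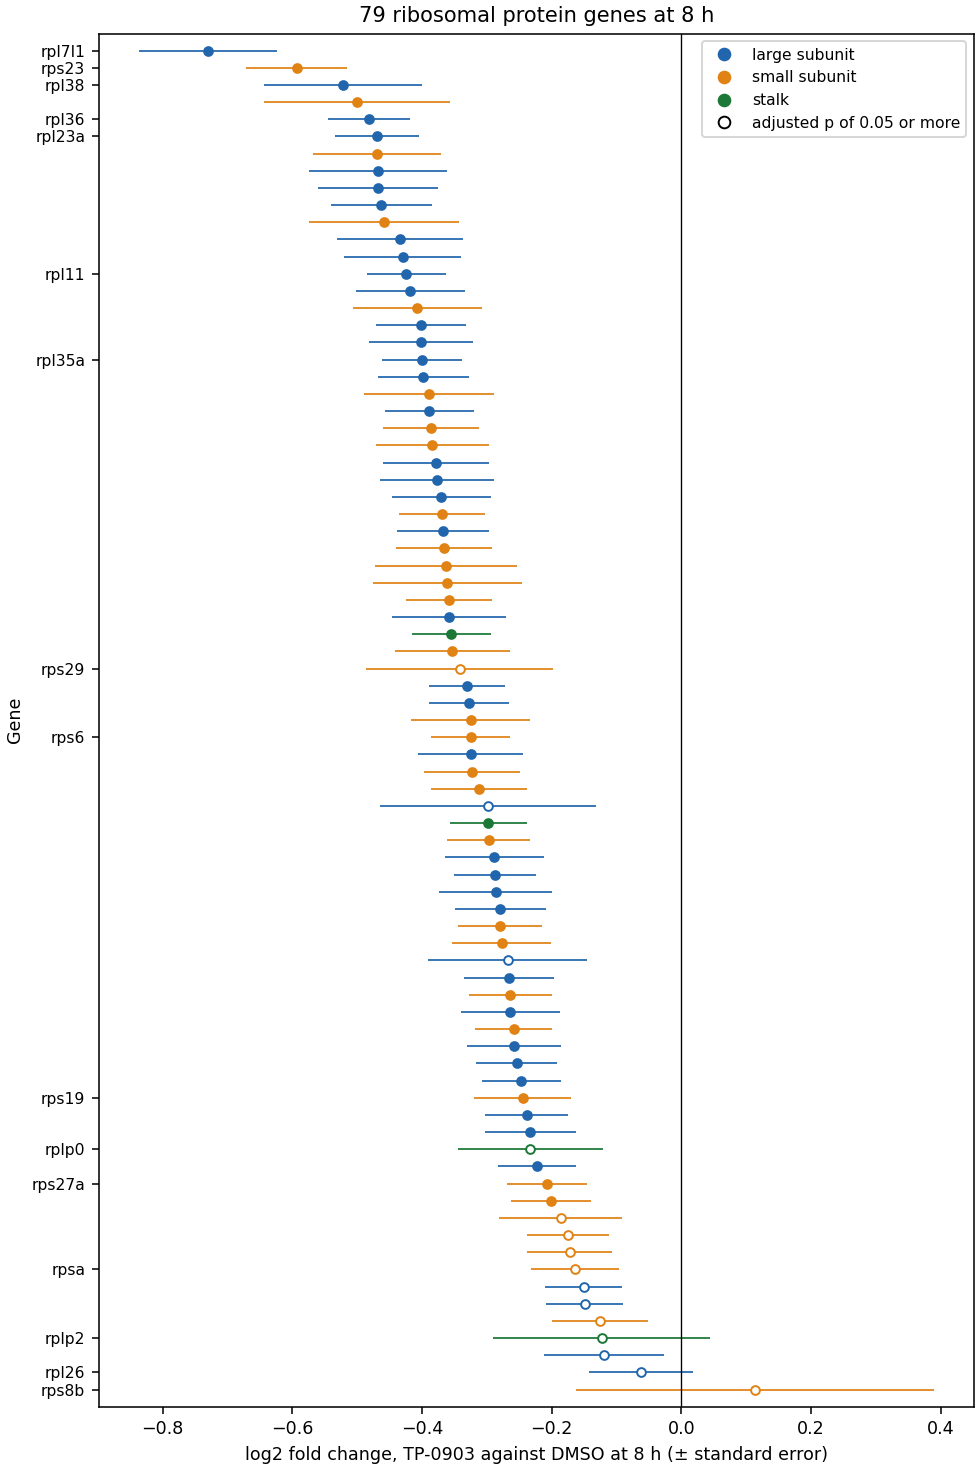
log2 fold change at 8 h, TP-0903 against DMSO (horizontal axis, ± SE from the edgeR fit), of the 79 genes ranked from lowest to highest, 1 row each, with names for some of the genes described; colours give the subunit and filled points an adjusted p under 0.05. Values run from -0.73 for rpl7l1 to 0.11 for rps8b, and 78 of 79 lie below 0.

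The largest fall was that of rpl7l1, a paralogue of the large subunit gene rpl7 whose product is not part of the mature ribosome. Its CPM at 8 h was 118, 92.0, 87.2 and 98.4 in DMSO replicates 1 to 4 and 56.4, 53.8, 57.3 and 70.6 in TP-0903 replicates 1 to 4. The groups did not overlap, and the log2 fold change was -0.73 with an SE of 0.11 and an adjusted p of 1.8e-04. In second place rps23 stood at 384, 418, 398 and 489 CPM with DMSO and 294, 283, 272 and 271 CPM with TP-0903, the TP-0903 libraries lying close together and below all others. Its log2 fold change was -0.59 with an SE of 0.08 and an adjusted p of 7.6e-05. The third was rpl38, a large subunit gene that in mice is needed for the translation of Hox mRNAs, which fell from 263 ± 59.3 CPM in DMSO libraries to 183 ± 12.7 CPM in TP-0903 libraries (SD, n = 4 each) (log2 fold change -0.52 with an SE of 0.12 and an adjusted p of 0.00538). Its DMSO replicates 1 to 4 held 216, 260, 228 and 348 CPM, so that replicate 4 added to the size of this fall. The fall of rpl38 was still called with each single library left out.

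The smallest adjusted p-values belonged to rpl7l1, rps23, rpl36, rpl23a and rpl11. The large subunit gene rpl36 fell from 457 ± 21.2 CPM in DMSO libraries to 327 ± 12.1 CPM in TP-0903 libraries (SD, n = 4 each) (log2 fold change -0.48 with an SE of 0.06 and an adjusted p of 7.1e-05). For rpl23a, whose protein sits at the exit of the peptide tunnel, the CPM fell from 998 ± 66.1 CPM in DMSO libraries to 720.4 ± 20.4 CPM in TP-0903 libraries (SD, n = 4 each) (log2 fold change -0.47 with an SE of 0.06 and an adjusted p of 1.1e-04). The rpl11 libraries held 742, 695, 748 and 759.6 CPM with DMSO and 551, 568, 552 and 522 CPM with TP-0903, a wide gap beside the spread within each group. Its log2 fold change was -0.42 with an SE of 0.06 and an adjusted p of 1.6e-04.

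Among the small subunit genes, rps6 was at 1458, 1515, 1441 and 1580.0 CPM with DMSO and 1220.5, 1188, 1234 and 1142 CPM with TP-0903, again without overlap and at a log2 fold change of -0.33 with an SE of 0.06 and an adjusted p of 0.00116. The ubiquitin fusion gene rps27a fell from 962 ± 37.5 CPM in DMSO libraries to 833 ± 36.7 CPM in TP-0903 libraries (SD, n = 4 each), a log2 fold change of -0.21 with an SE of 0.06 and an adjusted p of 0.0211. For rpsa, which in humans is mutated in congenital absence of the spleen, the log2 fold change was -0.16 with an SE of 0.07 and an adjusted p of 0.0868 and did not pass, although every TP-0903 library was below every DMSO library. The Rps19 partner gene rps19bp1 fell by a log2 fold change of -0.36 with an SE of 0.12 and an adjusted p of 0.03, at a level of 58.6 ± 4.46 CPM in DMSO libraries and 45.5 ± 8.43 CPM in TP-0903 libraries (SD, n = 4 each) and with overlapping groups.

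A few libraries set the size of single values. For rps20, a small subunit gene, the CPM was 455, 502, 489.6 and 808 with DMSO and 401, 408, 427 and 359 with TP-0903, so that DMSO replicate 4 alone was high. Its log2 fold change was -0.50 with an SE of 0.14 and an adjusted p of 0.0178, and -0.28 with an SE of 0.07 and an adjusted p of 0.0146 without that library. The same library was high for rplp0, at 2058, 2067, 2016 and 3056 CPM with DMSO and 2006, 2012, 1955 and 1855 CPM with TP-0903. That gene had a log2 fold change of -0.23 with an SE of 0.11 and an adjusted p of 0.138, and -0.07 with an SE of 0.06 and an adjusted p of 0.404 without DMSO replicate 4. For rps29 the CPM was 217, 241, 226 and 373 with DMSO and 209.6, 203, 239 and 183 with TP-0903, with overlapping groups and a log2 fold change of -0.34 with an SE of 0.14 and an adjusted p of 0.0909, and of -0.13 with an SE of 0.09 and an adjusted p of 0.301 without that library. Over the whole set 68 genes were called lower without DMSO 8 h replicate 4, and the median log2 fold change was then -0.29. The share of all genes called lower in that fit is not given here.

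The 15 genes that did not pass at 8 h held some of the most abundant ones. With values between -0.19 and -0.15, rps15a, rps2, rps8a, rpsa, rpl9 and rpl5a had adjusted p-values between 0.0510 and 0.160. Among the fold changes nearest 0 were those of rplp2 (-0.12 with an SE of 0.17 and an adjusted p of 0.617), rpl28 (-0.12 with an SE of 0.09 and an adjusted p of 0.363) and rpl26 (-0.06 with an SE of 0.08 and an adjusted p of 0.597). The rpl26 libraries, of a gene whose product binds p53 mRNA in human cells, were at 1181, 1132, 1017 and 892 CPM with DMSO and 1018, 1004, 985 and 1035 CPM with TP-0903, and the TP-0903 values lay within the DMSO range. The only value above 0 was that of rps8b, at 1.71, 1.5, 1.43 and 0.982 CPM with DMSO and 1.19, 1.66, 1.44 and 1.69 CPM with TP-0903, a level near 1 CPM at which no change could be read (log2 fold change 0.11 with an SE of 0.28 and an adjusted p of 0.791). For these genes the smallest SE was 0.06, and an adjusted p above 0.05 does not show that their levels were equal.

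Genes whose human counterparts are mutated in Diamond-Blackfan anaemia or lost in a related deletion syndrome, or that have zebrafish mutants, formed a list of 14, among them rpl5a, rpl5b, rpl11, rpl15, rpl26, rpl35a, rps7, rps10, rps14, rps19, rps24, rps26 and rps29. Of the 14, 10 fell and 4 (rpl5a, rpl26 and rps29 among them) did not pass at 8 h, where 81.0% of the 79 and 13.5% of all genes tested fell. The median log2 fold change of the 14 was -0.32, beside -0.33 over the 79. In rps19, the gene most often mutated in the human anaemia, the CPM was 629, 683, 634 and 725 with DMSO and 575, 568, 610.3 and 499.9 with TP-0903. Every TP-0903 library was below the DMSO ones, and the log2 fold change was -0.24 with an SE of 0.08 and an adjusted p of 0.0247. The values of rpl35a (-0.40 with an SE of 0.06 and an adjusted p of 3.0e-04) and rpl15 (-0.40 with an SE of 0.07 and an adjusted p of 8.0e-04) were the lowest of the list after rpl11. Those of the others that fell were -0.36 for rps14, -0.33 for rpl5b, -0.33 for rps10, -0.31 for rps26, -0.30 for rps24 and -0.28 for rps7.

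Ribosomal protein genes are short, and at 8 h the fold change over all genes followed gene length. The gene models of the 79 had a median length of 1042 bases (from counts and FPKM), beside 2174 for all genes listed. Across the 17478 genes tested, Spearman's rho between log2 fold change and length was 0.22, a description over genes of the same libraries. At 1 h and 4 h rho had the opposite sign, at -0.12 over 15530 genes and -0.27 over 15953 genes. The other genes were split into 10 groups of nearly equal size by length, and the group with the shortest models had a median log2 fold change of -0.13, the one with the longest a median of 0.17. At 4 h these medians were 0.08 and -0.13. The 30 ribosomal protein genes in the length range of the shortest group had a median of -0.36, and the 24 in that of the next group a median of -0.33, beside -0.10 for the other genes there. Within the 79, rho between log2 fold change and length was 0.12. With a smooth over gene length, fitted on genes outside the set, as an offset, 45 of the 79 fell and none rose at 8 h, beside 2455 of all genes that fell, and the median log2 fold change of the 79 was -0.25. Whether length or another property of short genes takes part in the fall was not tested.

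**Figure D4:**
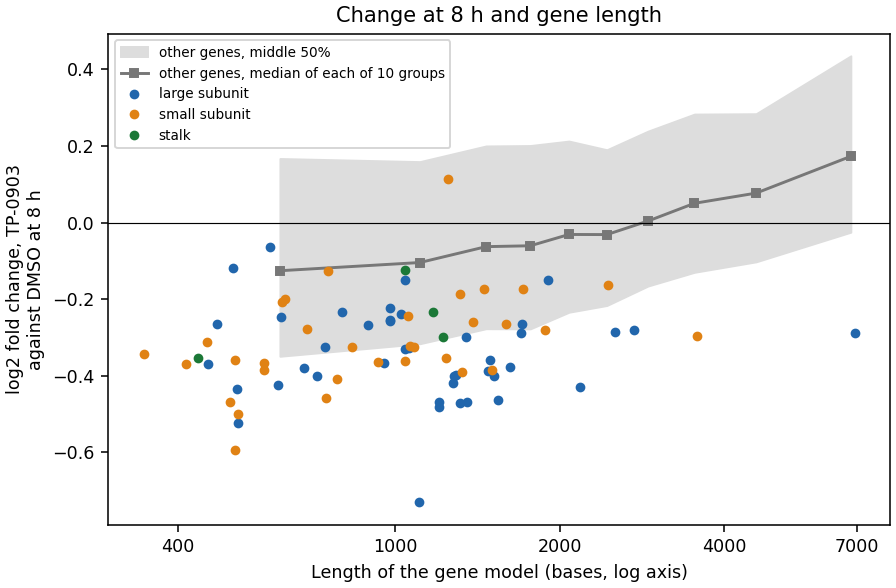
log2 fold change at 8 h (vertical axis) against the length of the gene model in bases (log horizontal axis) for the 79 genes, coloured by subunit, with the median (squares) and the middle 50% (grey) of all other genes in 10 groups of like length. The other genes rise from a median of -0.13 in the shortest group to 0.17 in the longest, and most of the 79 lie under the line through these medians.

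Markers of other tissues also moved at 8 h, when 15.4% of all genes tested rose and 13.5% fell. Of 6 epidermal markers 6 fell, and their summed level was 13391 to 16551 CPM with DMSO and 11230 to 13387 CPM with TP-0903. Of 7 muscle markers 3 rose and 2 fell, at a sum of 3602 to 4404 CPM and 4687 to 5518 CPM. Among the neural crest markers 1 of 4 fell, at 279 to 307 CPM and 246 to 254 CPM, and of 5 neural ones 2 rose and 1 fell, at 889 to 1033 CPM and 880 to 1007 CPM. Of 5 yolk layer markers 1 rose, at 1841 to 2995 CPM and 1117 to 3141 CPM, and of 7 blood marker genes 1 rose and 3 fell, at 508 to 657 CPM and 477 to 608 CPM. No marker listed was at 0 in all libraries of a time, and the share of counts on mitochondrially encoded genes was 1.89 to 3.17% with DMSO and 2.44 to 3.07% with TP-0903. Their part in the fall of the ribosomal protein genes was not tested. At 1 h the epidermal sum was 12299 to 19174 CPM with DMSO and 12077 to 18549 CPM with TP-0903.

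The treatment effect at 8 h was set against that at 4 h in a joint fit of 16 libraries. In 26 of the 79 genes the effect was lower at 8 h at an adjusted p under 0.05, and in none was it higher, while 7.74% of 15913 genes had a lower effect by edgeR's quasi-likelihood test. The median difference of the log2 fold changes was -0.36, beside -0.02 over all genes, and 77 of the 79 values were below 0. The clearest were rpl7l1 (-0.91 with an SE of 0.15 and an adjusted p of 7.5e-04), whose log2 fold change was 0.20 at 4 h and -0.73 at 8 h, rpl36 (-0.57 with an SE of 0.11 and an adjusted p of 0.00288) and rps23 (-0.67 with an SE of 0.14 and an adjusted p of 0.00471). The 26 were 15 of 42 large subunit genes, 9 of 33 small subunit genes and 2 of 4 stalk genes. The count was 9 with the gene length offset. The share of all genes called in that fit is not given here, so the 9 cannot be set against the 7.74%. The count among the 79 was 10 without DMSO 4 h replicate 3 or 4, 16 without TP-0903 4 h replicate 2 and 47 without TP-0903 4 h replicate 3. It was 12 and 17 without DMSO 8 h replicates 2 and 4, and 11, 15 and 17 without TP-0903 8 h replicates 1, 2 and 4. Shares of all genes called in these fits are not given here either.

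**Figure D5:**
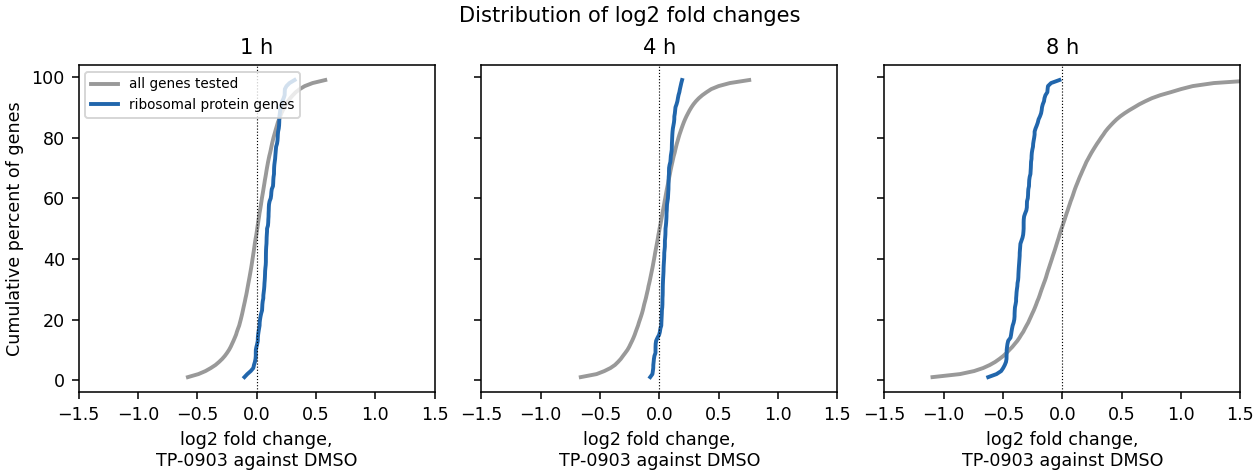
Cumulative percent of genes (vertical axis) against log2 fold change of TP-0903 against DMSO (horizontal axis) at 1, 4 and 8 h, for all genes tested (grey) and the 79 ribosomal protein genes (blue). The medians of the 79 are 0.09, 0.05 and -0.33, beside 0.01, 0.00 and -0.01 for all genes.

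In DMSO embryos the ribosomal protein genes changed with stage as well. From 1 h to 4 h (14 to 17 hpf) 75 of the 79 values were above 0, with a median log2 difference of 0.52, beside -0.03 over all genes. At an adjusted p under 0.05 by edgeR, 16 rose and none fell, while 10.3% of 16283 genes rose. The smallest adjusted p-values were those of rpl26 (0.80 with an SE of 0.11 and an adjusted p of 8.6e-05), rps2 (0.46 with an SE of 0.10 and an adjusted p of 0.00468) and rpl6 (0.59 with an SE of 0.17 and an adjusted p of 0.0227). This count turned on the 1 h libraries, with 75 genes called higher without DMSO 1 h replicate 4 and 2 without DMSO 1 h replicate 1, 2 or 3. It was 2, 3, 9 and 7 without DMSO 4 h replicates 1, 2, 3 and 4. The share of all genes called in these fits is not given here, so these counts cannot be set against the 10.3%.

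From 4 h to 8 h (17 to 19.5 hpf as labelled) the genes moved in both directions, as did genes at large. The quartiles of their log2 differences were -0.48 and -0.01, beside -0.32 and 0.39 over all genes, a wider range. At an adjusted p under 0.05 38 fell and 11 rose, where 23.3% of 15913 genes fell and 26.3% rose, and the median log2 difference was -0.23, beside 0.00 over all genes. The lowest was rps29, whose CPM in DMSO embryos went from 741, 736, 589.6 and 597 at 4 h to 217, 241, 226 and 373 at 8 h (-1.34 with an SE of 0.15 and an adjusted p of 5.0e-07), with no overlap. Also lower were rps20 (-1.05 with an SE of 0.14 and an adjusted p of 5.1e-06) and rps23 (-0.75 with an SE of 0.10 and an adjusted p of 5.1e-06). Higher were rpl26, at 596, 511, 576 and 633 CPM at 4 h and 1181, 1132, 1017 and 892 CPM at 8 h (0.86 with an SE of 0.10 and an adjusted p of 7.1e-07), rpl28 (0.53 with an SE of 0.11 and an adjusted p of 4.7e-04) and rps4x (0.40 with an SE of 0.09 and an adjusted p of 8.9e-04). The SD of the 79 values was 0.38, beside 0.12 for the treatment effect at 8 h.

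The 4 h and 8 h tables were made separately, and for 13 of the 79 genes, rpl26 and rpl36 among them, the length of the gene model differed by over 1% between them. For rpl26 it was 519 bases at 4 h and 589 at 8 h, and for rpl31, the largest change, 373 and 2739 bases. Among the 66 genes with the same length in both, 34 fell and 8 rose from 4 h to 8 h in DMSO embryos, and 19 had a lower treatment effect at 8 h than at 4 h. Over all genes tested, whether or not their length differed, 23.3% fell and 26.3% rose, and 7.74% had a lower treatment effect. Stage and table cannot be told apart in the comparison of DMSO groups.

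Several ribosomal protein genes have a near copy in the zebrafish genome, and reads that match both copies may be lost or divided, so that their split is uncertain. In DMSO embryos rplp2l, a stalk gene, stood above rplp2 at each time. The difference in log2 CPM, rplp2l minus rplp2, was 0.90 ± 0.57 (SD, n = 4) at 1 h, 1.60 ± 0.18 at 4 h and 2.83 ± 0.47 at 8 h, with overlapping libraries at 1 h and 4 h and none between 4 h and 8 h. Between 4 h and 8 h the rplp2l level rose (0.39 with an SE of 0.09 and an adjusted p of 0.00142) and the rplp2 level fell (-0.78 with an SE of 0.15 and an adjusted p of 3.5e-04). At 8 h the rplp2l CPM was 852, 885, 809 and 806 with DMSO and 645, 655, 681 and 639 with TP-0903, without overlap (-0.35 with an SE of 0.06 and an adjusted p of 6.7e-04). That of rplp2 was 93.3, 114, 97.8 and 184 and 126, 104, 107 and 113, DMSO replicate 4 standing high.

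In the same embryos rpl7l1 and rpl22l1 stood below their partners. The difference rpl7l1 minus rpl7 was -2.69 ± 0.30, -3.40 ± 0.08 and -3.83 ± 0.20 at 1, 4 and 8 h with DMSO, and -4.22 ± 0.22 at 8 h with TP-0903 (log2 CPM, SD, n = 4). The DMSO libraries of the 3 times did not overlap in this difference. The treatment groups at 8 h did, although rpl7l1 (-0.73) had a lower log2 fold change than rpl7 (-0.33 with an SE of 0.06 and an adjusted p of 8.8e-04). The rpl22 pair takes opposed roles in zebrafish blood stem cell formation, and rpl22l1 minus rpl22 was -0.73 ± 0.23, -0.92 ± 0.12 and -1.16 ± 0.17 with DMSO and -1.20 ± 0.19 at 8 h with TP-0903. Its DMSO libraries overlapped from each time to the next. At 8 h rpl22 fell (-0.23 with an SE of 0.07 and an adjusted p of 0.0221), and rpl22l1, at 173, 227, 183 and 179 CPM with DMSO and 169.7, 166, 182 and 116 CPM with TP-0903, did not pass (-0.27 with an SE of 0.12 and an adjusted p of 0.118).

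The rpl5 copies were nearly equal in level. At 8 h rpl5a was at 1323, 1283, 1235 and 1186 CPM with DMSO and 1148, 1139, 1137 and 1109 CPM with TP-0903, and its log2 fold change was -0.15 with an SE of 0.06 and an adjusted p of 0.0747. For rpl5b the CPM was 1163, 1239.8, 1143 and 1261 and 959, 943, 1004 and 926, a log2 fold change of -0.33 with an SE of 0.06 and an adjusted p of 0.00128. Both copies had each TP-0903 library below each DMSO library. The difference rpl5b minus rpl5a was -0.06 ± 0.12 with DMSO and -0.24 ± 0.04 with TP-0903 at 8 h (log2 CPM, SD, n = 4), and these groups overlapped. At 4 h it was 0.15 ± 0.03 with DMSO and 0.24 ± 0.02 with TP-0903, where the groups did not overlap and the order was the opposite. For rps26 and rps26l the log2 fold changes were -0.31 and -0.37, and both fell. No difference between copies was tested.

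Other genes of protein synthesis, from lists chosen with earlier results known, were read in the same fit at 8 h. Over all 17478 genes tested in that fit 13.5% fell and 15.4% rose. Of 7 ribosomal genes whose names fall outside the rule 5 fell, among them 1 of the 2 rps27.2 entries (-0.33 with an SE of 0.06 and an adjusted p of 0.00139) and gnb2l1, the scaffold Rack1 (-0.26 with an SE of 0.06 and an adjusted p of 0.00464), and the list's median was -0.24. Of 27 genes of elongation, initiation and related oligopyrimidine-tract mRNAs 12 fell and 1 rose, with a median of -0.19. The lowest were npm1a, a nucleolar chaperone (-0.66 with an SE of 0.12 and an adjusted p of 7.1e-04), and eif3k, a subunit of an initiation factor (-0.62 with an SE of 0.09 and an adjusted p of 1.4e-04), and the gene that rose was eef2l2, listed as an elongation factor relative (1.20 with an SE of 0.13 and an adjusted p of 1.1e-05).

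Of the ribosome biogenesis genes, 77 were tested. Of these 64 fell and none rose, while 13.5% of all genes tested fell. The list's median log2 fold change was -0.47, beside -0.33 for the ribosomal protein genes and -0.01 over all genes. The lowest were rcl1, of small subunit processing (-0.77 with an SE of 0.13 and an adjusted p of 5.9e-04), and nip7, of large subunit assembly (-0.75 with an SE of 0.13 and an adjusted p of 7.3e-04), and eif6, which keeps the subunits apart (-0.70 with an SE of 0.10 and an adjusted p of 1.8e-04), also fell. Of 61 mitochondrial ribosomal protein genes 27 fell and none rose, with a median of -0.37 and with mrpl48 (-0.65 with an SE of 0.16 and an adjusted p of 0.00686) and mrpl32 (-0.64 with an SE of 0.10 and an adjusted p of 4.2e-04) among the lowest. At 4 h none of the genes of these 4 lists was called, where 0.74% of all genes tested were called. The medians of the 4 lists were then 0.14, 0.00, 0.02 and 0.11 in the order given.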

How the data were processed

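RNA of 24 libraries from whole zebrafish embryos was analysed, 4 for each of 2 treatments and 3 times. Per the labels and the study's methods, the authors removed ribosomal RNA, made stranded libraries, sequenced 50-cycle single reads, aligned them with Novoalign (2.08.03 in the submitters' processing notes) to the zv9 genome and splice junctions, discarded repetitive alignments and counted reads per Ensembl gene with USeq. The authors deposited raw counts without normalization, in 1 table per time. FPKM, also deposited by the authors, gives the same counts per unit of gene length and of library size. The deposited log2 fold changes and FDR scores of the authors' own comparison were not used. The tables held 0 sample columns that were not used.

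Counts were tested in R 4.3.3 with edgeR 4.0.16 (filterByExpr, TMM, estimateDisp, glmQLFit, glmQLFTest) over all genes, with Benjamini-Hochberg adjustment and a threshold of 0.05. Each time was fitted apart on 8 libraries, and pairs of times jointly on 16. The standard error is the absolute log2 fold change over the root of the F statistic. CPM values used TMM-normalized totals, and log2 CPM a pseudocount of 0.5. Gene model lengths were derived from counts and FPKM. Alternatives were DESeq2 1.42.0, limma 3.58.1 (voom), RLE size factors, total counts, TMM without the 79 genes, no filter, the replicate number as a block, a gene length offset (lowess, span 0.2), each library left out, a total without the 20 genes of most counts, and, added after seeing the data, a library axis term, 2 libraries left out at 1 h, and only genes with the same model length in both tables.

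The 79 genes, the other lists and the tests were chosen with earlier results of these data known. Genes were named by a rule: at each time the 3 lowest and 3 highest log2 fold changes, up to 5 called genes per direction with the smallest adjusted p (3 in comparisons of times), the 3 highest and 3 lowest mean FPKM in DMSO embryos at 8 h, and a list of genes with known roles. Some genes this rule takes are not reported here. Of the genes given by value, rps23, rpl11 and rplp2 at 1 h, rps20 at 8 h, rps15a, rps8a, rpl9, rps26l and the genes of other lists fall outside this rule and were named after their values were seen. Nothing in the labels says whether the 4 libraries of a group came from separate clutches, so the p-values measure the spread between these samples. On simulated counts with 200 changed genes the edgeR steps recovered 164 of 200 at 1 h (15362 genes), 158 at 4 h (15862 genes) and 163 at 8 h (17256 genes). These numbers describe the edgeR steps. Recovery of a fall as small as that of the 79 genes at 8 h, at the spread of the 1 h libraries, was not tested. Coordinates and sequences are not given.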

Additional observations from a re-analysis of the deposited data

Results flagged for a closer look

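For the share of counts on the 79 genes and for the 15 genes given library by library, each of the 6 groups of 4 libraries was searched for a library far from the others by Dixon's ratio, the gap to the nearest library over the range of the group, against its 95% critical value. Of 96 groups tested 12 were past it, where chance gives about 1 in 20 for genes picked without regard to their values. Some of the 15 genes were named after their values were seen, so the 12 cannot be set against that rate. In DMSO 1 h, replicate 4 was high for the share of counts (ratio 0.878), rpl7l1 (0.896), rps23 (0.973), rps20 (0.857), rpl11 (0.989), rpl5b (0.972), rplp2l (0.967) and rps6 (0.915). Its share was 7.65% where the others held 4.86 to 5.20%, and its rps6 level 1738 CPM where the others held 842 to 918 CPM. In DMSO 8 h, replicate 4 was high for rps20 (0.867), rplp0 (0.951) and rps29 (0.849). In DMSO 4 h, replicate 1 was high for rplp2l (0.862), at 726 CPM beside 600.3 to 618 CPM. These genes come from the same libraries, so the 12 are not separate events.

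The treatment effect differed between 8 h and 4 h in 26 of the 79 genes by the test of the difference itself in edgeR, all of them lower at 8 h, beside 7.74% of all genes. With the gene length offset 9 of the 79 were called, and the share of all genes in that fit is not given here.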

How the results depend on the processing

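At 8 h the 58 to 71 calls under the alternatives other than the gene length offset were all falls, and 44 of the 79 genes were called in each of the 18 fits. With that offset 45 genes were called and the median log2 fold change was -0.25, beside -0.33 in the main fit. The mean log2 CPM of the 79 genes had an SD between libraries of 0.07 at 8 h, pooled over both treatments. Leaving out each library in turn gave 58 to 68 calls and medians from -0.36 to -0.29. At 1 h and 4 h no alternative called a member, and the medians without single libraries ran from -0.06 to 0.35 and from -0.00 to 0.10, while with the offset the 4 h median was -0.00. The lower treatment effect at 8 h than at 4 h was called in 9 genes with the offset and in 10 to 47 with libraries left out. From 4 h to 8 h in DMSO embryos libraries left out gave 41 to 51 calls. From 1 h to 4 h in DMSO embryos 25 genes were called by total counts, 33 with the offset, and 2 to 75 with libraries left out, all higher. The causes of these moves were not tested. Shares of all genes called in the alternative fits are not given in this section, so its counts describe calls among the 79 alone. Without the 20 genes of most counts in the total, the mean share was 8.90% (DMSO) and 9.21% (TP-0903) at 4 h and 7.58% and 6.36% at 8 h, since the total is smaller. At no time did every pair of same-numbered libraries correlate above 0.1 in its deviations (correlations from -0.730 to 0.602 at 1 h, 0.0787 to 0.440 at 4 h and -0.0837 to 0.0568 at 8 h), so the numbers were not taken as pairs. With the replicate block 58 genes were called at 8 h, 22 for the difference of 8 h against 4 h, 4 for DMSO 4 h against 1 h and 48 for DMSO 8 h against 4 h. For single genes 31 fits lost and 10 gained a call among 57 values, with no reversal of a called value or of one past its standard error. With the offset rpl22, rps7, rps10, rps19, rps19bp1, rps26 and rps27a at 8 h lost theirs. Totals of 3879310 to 10582470 counts limit the copies of low level, such as rps8b.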
